A study of Mus musculus with 6 samples.

Results

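The 7 genes described here make and load the MHC class II molecule, and were taken from the table of gene expression of bone marrow-derived macrophages (BMDMs) by their symbols, H2-Aa, H2-Ab1, H2-Eb1, Cd74, H2-DMa, H2-DMb1 and Ciita. All 7 were among the 35424 genes that could be read from the table, and all 7 had a mean expression high enough to be tested. BMDMs are macrophages grown from mouse bone marrow, here from the femurs of C57BL/6 mice, in medium with 10 ng per ml of the growth factor M-CSF for 7 days. The series compared 3 untreated libraries (Ctrl) with 3 libraries of cells stimulated with zoledronic acid (ZA), a bisphosphonate that blocks bone resorption, 12 h after ZA was added. The study's wild-type C57BL/6 mice were females obtained at 6 weeks of age. The dose of ZA in these cultures, the age at which the marrow was taken, and whether the 3 cultures of a group came from separate mice are not given in the sources used here, so the p-values measure the spread between these libraries, which may be technical. No interferon-gamma is named for the cultures of either group.

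An MHC class II molecule is a pair of an alpha and a beta chain that holds a peptide from a protein taken up by the cell and shows it to CD4+ T cells. In the endoplasmic reticulum the pair is blocked and guided by the invariant chain, the product of Cd74. Proteases of the endosome and lysosome later cut the invariant chain away, and H2-DM exchanges the remaining fragment for antigenic peptide. Ciita, the class II transactivator, does not bind DNA itself but sits on a complex of RFX, NF-Y and CREB factors at the promoters of these genes. In macrophages interferon-gamma is the best known inducer of Ciita, through its receptor, the kinases Jak1 and Jak2, and Irf1. C57BL/6 mice lack a functional H2-Ea alpha chain, so that the beta chain H2-Eb1 has no partner of its own isotype.

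The promoters shown here are the class II promoters of this list in which the letters of the shared control module were found. They come from RefSeq on GRCm38.p6, whose windows cover 250 bases before to 50 after a start site and exist for 4 of the 7 genes. Only the 130 bases before the start are printed, 5′ to 3′ on the strand of the gene. The capitals mark GNAACT, letters common to the X boxes bound by the RFX complex, and ATTGG, the Y box bound by NF-Y.
H2-Aa, chr17:34287824-34287953, minus strand: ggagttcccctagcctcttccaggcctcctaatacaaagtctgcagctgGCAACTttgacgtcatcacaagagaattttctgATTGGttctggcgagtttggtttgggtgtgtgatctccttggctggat
H2-Eb1, chr17:34305737-34305866, plus strand: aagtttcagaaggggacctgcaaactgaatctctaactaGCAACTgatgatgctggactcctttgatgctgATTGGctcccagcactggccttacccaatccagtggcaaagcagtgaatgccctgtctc
H2-DMb1, chr17:34153061-34153190, plus strand: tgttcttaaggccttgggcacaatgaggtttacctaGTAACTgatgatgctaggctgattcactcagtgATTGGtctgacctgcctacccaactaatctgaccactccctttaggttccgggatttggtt

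Between the pair of motifs lay 27 bases in H2-Aa, 26 in H2-Eb1 and 27 in H2-DMb1. The first base of GNAACT stood 81, 91 and 94 bases before the start of H2-Aa, H2-Eb1 and H2-DMb1. The letters were chosen after these promoters had been read. Searched on both strands of 32851 RefSeq windows, ATTGG alone was found in 37.4% and GNAACT alone in 42.8%. GNAACT followed on the same strand by ATTGG after 20 to 40 bases was found in 0.925%. The 2 windows of H2-DMa did not hold the pair. A match of letters is a description of the window and not a measured binding site.

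Cd74 was the most abundant of the 7 transcripts and one of the most abundant of the cells. Expression is given as FPKM, a count of fragments divided by how long the gene is and how deep the library is, so that levels of different genes can be compared where the length used fits the transcripts. Cd74 was at 876, 856 and 826 FPKM in Ctrl 1, 2 and 3, and at 787, 857 and 942 FPKM in ZA 1, 2 and 3. It ranked 47 by mean FPKM among the genes read. The groups overlapped fully, with ZA libraries both below and above all Ctrl libraries. In mean FPKM, H2-Aa and H2-Ab1 followed, whose values overlapped among the ZA but not among the Ctrl libraries, then H2-Eb1 and H2-DMb1, each apart from its neighbours in all libraries, and then H2-DMa and Ciita. The places of H2-DMa and Ciita in this order are uncertain, because the gene lengths behind their values exceed those of their annotated coding transcripts. The 7 genes together took between 0.203% and 0.213% of the fragments of a Ctrl library and between 0.193% and 0.227% of those of a ZA library. Because RNA was taken from whole cultures, fewer cells that express a gene and less RNA per cell cannot be told apart.

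None of the 7 genes was called higher or lower in ZA at an adjusted p under 0.05 (limma on log2(FPKM + 1), two-sided, Benjamini-Hochberg adjustment over the 9800 genes tested). Among all genes tested, 0.204% were called higher and 0.163% lower, together 0.367%. At an unadjusted p under 0.05, 1 of the 7, Ciita, was higher and 0 were lower by limma, and limma's voom on fragments also gave 1, against 12.3% of all genes tested. Their log2 fold changes had a median of 0.0001, against 0.01 over all genes tested. None of the 7 had groups without overlap (0 of 7), which 18.1% of all genes tested had.

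**Figure D1:**
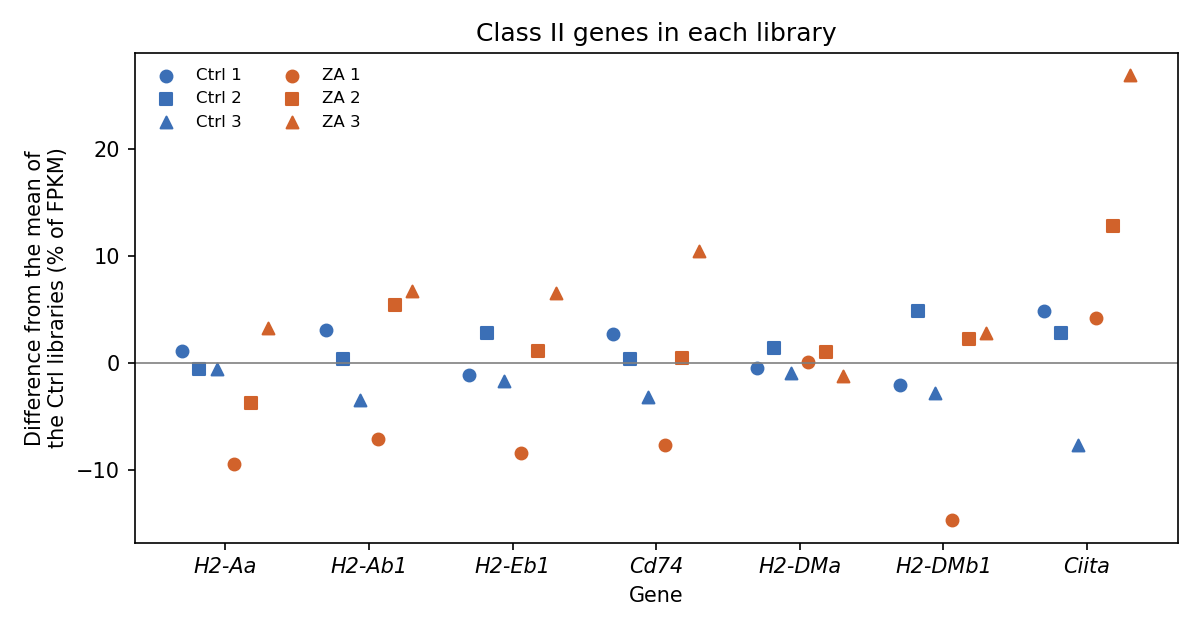
Expression of the 7 class II genes in each library, as the difference from the mean of the 3 Ctrl libraries in percent of FPKM; colour gives the group, marker shape the replicate number. For 4 genes ZA 1 is the lowest and ZA 3 the highest of the 6 libraries, H2-DMa stays within 1.37% of its Ctrl mean, and Ciita reaches 26.9% above it in ZA 3.

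The classical chains form the peptide groove. H2-Aa, the alpha chain of the I-A molecule, was at 259, 254 and 254 FPKM in Ctrl 1, 2 and 3 and at 231, 246 and 264 FPKM in ZA 1, 2 and 3. The Ctrl libraries lay close together, and the ZA libraries spread from below to above them. The log2 fold change of H2-Aa was -0.05 (95% interval -0.15 to 0.05, adjusted p = 0.670 from limma).

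H2-Ab1, the beta chain that pairs with H2-Aa, was at 229.9, 224 and 215 FPKM in Ctrl 1, 2 and 3 and at 207, 235 and 238 FPKM in ZA 1, 2 and 3. Here 1 ZA library was below and the other two were above all Ctrl libraries. Its log2 fold change was 0.02 (95% interval -0.10 to 0.14, adjusted p = 0.903 from limma). H2-Eb1, the beta chain of I-E, was at 109, 113 and 108 FPKM in Ctrl and at 101, 111 and 117 FPKM in ZA, in the order of the replicate numbers. The extremes were again ZA 1 and ZA 3, with the Ctrl libraries between them. Its log2 fold change was -0.01 (95% interval -0.12 to 0.11, adjusted p = 0.977 from limma).

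For the invariant chain Cd74, whose values are given with the levels, the log2 fold change was 0.01 (95% interval -0.12 to 0.14, adjusted p = 0.954 from limma). The proportions of the chains and their chaperone were taken within each library, and how steady such ratios are for other genes was not examined. The ratio of Cd74 to the summed FPKM of H2-Aa, H2-Ab1 and H2-Eb1 averaged 1.45 ± 0.0182 in Ctrl against 1.48 ± 0.0400 in the ZA libraries (SD, n = 3). The ratio of H2-Aa to H2-Ab1, partners in 1 molecule, was 1.12, 1.13 and 1.18 in Ctrl 1, 2 and 3 and 1.12, 1.05 and 1.11 in ZA 1, 2 and 3. H2-Eb1 stood at 0.494 ± 0.0175 of H2-Ab1 in Ctrl against 0.484 ± 0.00973 in the ZA libraries (SD, n = 3). These ratios are given as descriptions, without a test.

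H2-DM, the peptide exchange factor, is a pair of H2-DMa and an H2-DMb chain. H2-DMb1 was at 42.7, 45.7 and 42.4 FPKM in Ctrl 1, 2 and 3 and at 37.2, 44.6 and 44.8 FPKM in ZA 1, 2 and 3. ZA 1 stood below the other five libraries, which overlapped. The log2 fold change was -0.05 (95% interval -0.21 to 0.11, adjusted p = 0.808 from limma). Its paralog H2-DMb2 was at 0.0197 ± 0.00219 of H2-DMb1 in Ctrl against 0.0197 ± 0.00375 in the ZA libraries (SD, n = 3), with 41 to 55 fragments in a library. The 2 genes are close in sequence, and how reads that match both were assigned is not given in the sources used here, so the values of each are uncertain.

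H2-DMa was the steadiest of the 7, at 6.23, 6.35 and 6.21 FPKM in Ctrl 1, 2 and 3 and at 6.27, 6.33 and 6.19 FPKM in ZA 1, 2 and 3. All 6 values lay within a narrow band and the groups overlapped. The log2 fold change was 0.00 (95% interval -0.08 to 0.08, adjusted p = 1 from limma). The level of H2-DMa cannot be set against that of the others. The table's values correspond to a gene length of 8325 bases, while the coding transcripts of H2-DMa in GENCODE M21 have 1108 to 2005 bases and its exons together 3448. In fragments, which are not divided by the length, H2-DMa had 2152 to 2197 per library and H2-DMb1 1969 to 2440. Fragments depend on how many bases of a gene were counted, so these counts do not compare the levels of the 2 chains. In GENCODE M21 the exons of H2-DMa also share 360 bases with exons of Brd2, a chromatin reader encoded on the other strand. Brd2 was at 42.1 to 42.6 FPKM in Ctrl and 42.4 to 44.0 FPKM in ZA. Whether counting used strand is not given in the sources used here, so reads of the 2 genes in the shared bases cannot be told apart.

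Ciita, the transactivator, had the largest log2 fold change of the 7 genes. It was at 4.12, 4.05 and 3.63 FPKM in Ctrl 1, 2 and 3 and at 4.10, 4.44 and 4.99 FPKM in ZA 1, 2 and 3. ZA 2 and ZA 3 exceeded all Ctrl libraries, while ZA 1 was within their range. It averaged 3.93 ± 0.263 FPKM in Ctrl against 4.51 ± 0.451 FPKM in the ZA libraries (SD, n = 3), with 1484 to 2058 fragments in a library. Its log2 fold change was 0.16 (95% interval 0.0033 to 0.31, adjusted p = 0.397 from limma), so that it was not called. Its unadjusted p was no longer under 0.05 when Ctrl 2, Ctrl 3, ZA 2 or ZA 3 was left out. The log2 fold change was 0.10 without ZA 3 (adjusted p = 0.665 from limma) and 0.21 without ZA 1 (adjusted p = 0.214 from limma). The length behind its FPKM is 9775 bases, near the 9535 bases of its exons together in GENCODE M21. Its longest coding transcript there has 6007, so its level is also hard to set against those of the other genes.

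Relative to Ciita, the abundance of its targets Cd74 and H2-Ab1 was lower in each ZA library than in each Ctrl library. The ratio of Cd74 to Ciita in FPKM was 212, 212 and 227 in Ctrl 1, 2 and 3 and 192, 193 and 189 in ZA 1, 2 and 3. The ratio of H2-Ab1 to Ciita averaged 56.8 ± 2.14 in Ctrl against 50.4 ± 2.65 in the ZA libraries (SD, n = 3). These ratios were formed after the values had been seen, carry no test, and share Ciita. Cd74 and H2-Ab1 had log2 fold changes of 0.01 and 0.02 and Ciita 0.16, so the lower ratios mostly restate the values of Ciita, which was not called. Ratios of the other class II genes to Ciita were not formed, and how often ratios of other genes separate the groups was not counted.

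**Figure D2:**
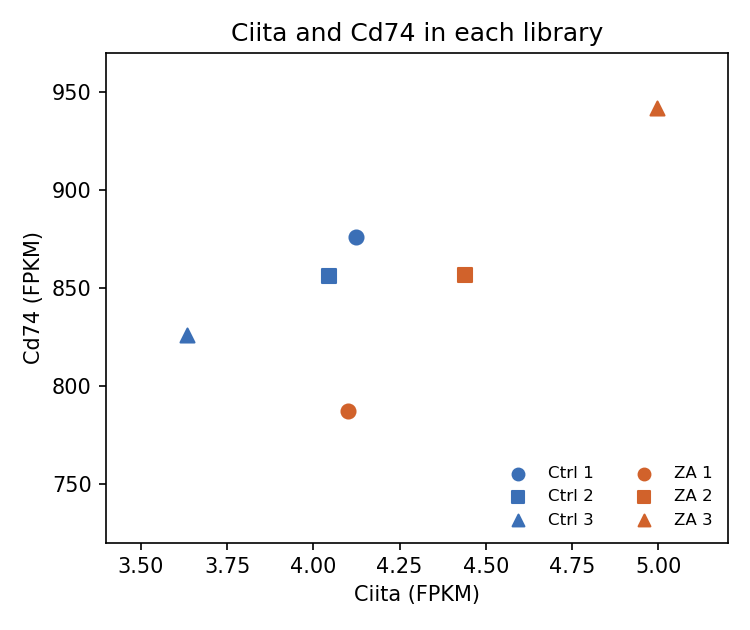
Ciita (horizontal) against Cd74 (vertical), both in FPKM on axes that do not start at 0, 1 point per library; colour gives the group, marker shape the replicate number. ZA 3 is highest for both genes at 4.99 and 942 FPKM, and ZA 1 is lowest for Cd74 at 787 FPKM with Ciita inside the Ctrl range.

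The class II genes varied more among the ZA libraries than among the Ctrl libraries. The coefficient of variation of FPKM was larger in ZA for 6 of the 7 genes, all but H2-DMa, and for 52.5% of all genes tested. It was 0.994% in Ctrl and 6.59% in ZA for H2-Aa, and 2.45% and 7.57% for H2-Eb1. Over all genes tested the median was 3.54% in Ctrl and 3.72% in ZA. ZA 1 was the lowest and ZA 3 the highest of the 6 libraries for H2-Aa, H2-Ab1, H2-Eb1 and Cd74, an order found in 3.04% of all genes tested. That order was singled out after the values had been seen. The genes share the same 6 libraries and are not independent, so the share of 3.04% is given as a description only. Single ZA libraries moved the differences. Without ZA 1 the log2 fold change of H2-Ab1 was 0.09 (adjusted p = 0.268 from limma), and without ZA 3 that of H2-Aa was -0.10 (adjusted p = 0.366 from limma). In both cases the unadjusted p was under 0.05.

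The profile of the class II genes across libraries was taken as the mean of their standardised log2(FPKM + 1). Pearson's r with this profile over the 6 libraries was 0.96 for H2-Eb1, 0.95 for H2-Ab1, 0.92 for Cd74, 0.91 for H2-DMb1, 0.77 for H2-Aa, 0.67 for Ciita and 0.05 for H2-DMa. Each of these genes is part of the mean it is compared with. Of the genes outside the list, Zfp623, Uqcc2, Mettl25, Pip4p1 and Rwdd4a had the highest r, from 0.97 to 0.98, and Plekha3 and Mier2 the lowest, both -0.99. An r above 0.9 was found for 48 of the 9800 genes tested, among them H2-Eb1, H2-Ab1, Cd74 and H2-DMb1. The values share libraries and library totals, and with 6 libraries they are descriptions only.

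The remaining class II chains were low. H2-Eb2, H2-DMb2, H2-Oa and H2-Ob, the last a pair that restrains H2-DM, were below 1 FPKM in every library and were not tested. H2-DMb2 had 41 to 55 fragments in a library, H2-Ob 11 to 25, H2-Oa 3 to 14 and H2-Eb2 2 to 5.

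Beyond the 7 genes, 41 of 47 listed genes of the pathway were tested, and 0 were called in either direction at an adjusted p under 0.05 from limma or from voom. At an unadjusted p under 0.05, 7 were higher and 6 lower in ZA by limma, 31.7% of the 41, against 7.50% higher and 4.85% lower among all genes tested. The lists were chosen with results of these libraries known, so this share is no independent evidence. The counts of each list below stand against the same shares of all genes tested. Groups without overlap, given below for single genes, were found in 18.1% of all genes tested. Those genes were named for their large statistic, so the separation adds no evidence.

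Of the 8 promoter factors, 1 was higher and 0 lower at an unadjusted p under 0.05, and their median log2 fold change was 0.03. Rfx5, the DNA-binding subunit of RFX, was at 2.51, 2.70 and 2.48 FPKM in Ctrl 1, 2 and 3 and at 2.75, 2.52 and 2.68 FPKM in ZA 1, 2 and 3. The groups of Rfx5 overlapped, with a log2 fold change of 0.03 (adjusted p = 0.812 from limma). The other RFX subunits Rfxank and Rfxap had log2 fold changes of 0.09 and 0.06 (adjusted p = 0.508 and 0.616 from limma). Nlrc5, a relative of Ciita that acts on class I promoters, was at 4.65, 4.82 and 4.64 FPKM in Ctrl and 4.93, 5.13 and 5.73 FPKM in ZA. All ZA libraries of Nlrc5 were above all Ctrl libraries, and the log2 fold change was 0.13 ± 0.05 (SE, the standard error; adjusted p = 0.360 from limma).

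Of the 9 tested genes of the interferon-gamma route to Ciita, 3 were higher and 0 lower at an unadjusted p under 0.05, and the median log2 fold change was 0.03. Interferon-gamma itself, Ifng, was listed at 0 in 5 libraries and at 0.0196 FPKM, which is 1 fragment, in ZA 3. Irf1, a transcription factor that binds a Ciita promoter, was at 22.9, 24.7 and 23.8 FPKM in Ctrl and 24.2, 26.4 and 28.0 FPKM in ZA. ZA 1 lay within the Ctrl range of Irf1, and the log2 fold change was 0.13 ± 0.05 (SE; adjusted p = 0.365 from limma). Ifngr1, a chain of the interferon-gamma receptor, and Socs1, a feedback inhibitor of JAK kinases, had log2 fold changes of 0.07 and 0.25 (adjusted p = 0.326 and 0.369 from limma).

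Of the 9 genes of invariant chain and antigen proteolysis, 0 were higher and 3 lower at an unadjusted p under 0.05, with a median log2 fold change of 0.0033. The lower ones were Ctsd, Ctsb and Lgmn, proteases of the lysosome. In each of them all ZA libraries lay below all Ctrl libraries, and groups without overlap were found in 18.1% of all genes tested. The log2 fold changes were -0.07 for Ctsd, -0.05 for Ctsb and -0.05 for Lgmn (adjusted p = 0.321, 0.301 and 0.369 from limma). Ctsb was at 4842, 4847 and 4893 FPKM in Ctrl 1, 2 and 3 and at 4718, 4705 and 4640.01 FPKM in ZA 1, 2 and 3. Ctss, the protease that makes the final cuts of the invariant chain in such cells, was at 4475 FPKM in Ctrl and 4606 FPKM in ZA on average (log2 fold change 0.04, adjusted p = 0.607 from limma); it was added after its values were seen.

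Of the 9 genes of class II turnover and sorting, 1 was higher and 3 lower at an unadjusted p under 0.05, with a median log2 fold change of -0.02. The lower ones were Cd63 and Cd9, tetraspanins of endosomes and the cell surface, and Arl8b, a GTPase that moves lysosomes. The log2 fold changes were -0.07 for Cd63, -0.08 for Cd9 and -0.06 for Arl8b (adjusted p = 0.255, 0.304 and 0.317 from limma). Cd63 was at 718, 714 and 707 FPKM in Ctrl 1, 2 and 3 and at 670.1, 695 and 676 FPKM in ZA 1, 2 and 3, without overlap.

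Of the 6 tested genes of T-cell costimulation, 2 were higher and 0 lower at an unadjusted p under 0.05, with a median log2 fold change of 0.06. Icosl, the ligand of the T-cell receptor ICOS, was at 3.13, 3.30 and 3.23 FPKM in Ctrl 1, 2 and 3 and at 3.76, 4.05 and 4.39 FPKM in ZA 1, 2 and 3. All ZA libraries of Icosl were above all Ctrl libraries, and its log2 fold change was 0.26 ± 0.05 (SE; adjusted p = 0.0966 from limma). Icosl was the listed pathway gene with the largest moderated statistic and was still not called. Cd274, the inhibitory ligand PD-L1, and Cd40, a receptor for T-cell help, had log2 fold changes of 0.08 and 0.19 (adjusted p = 0.353 and 0.471 from limma).

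**Figure D3:**
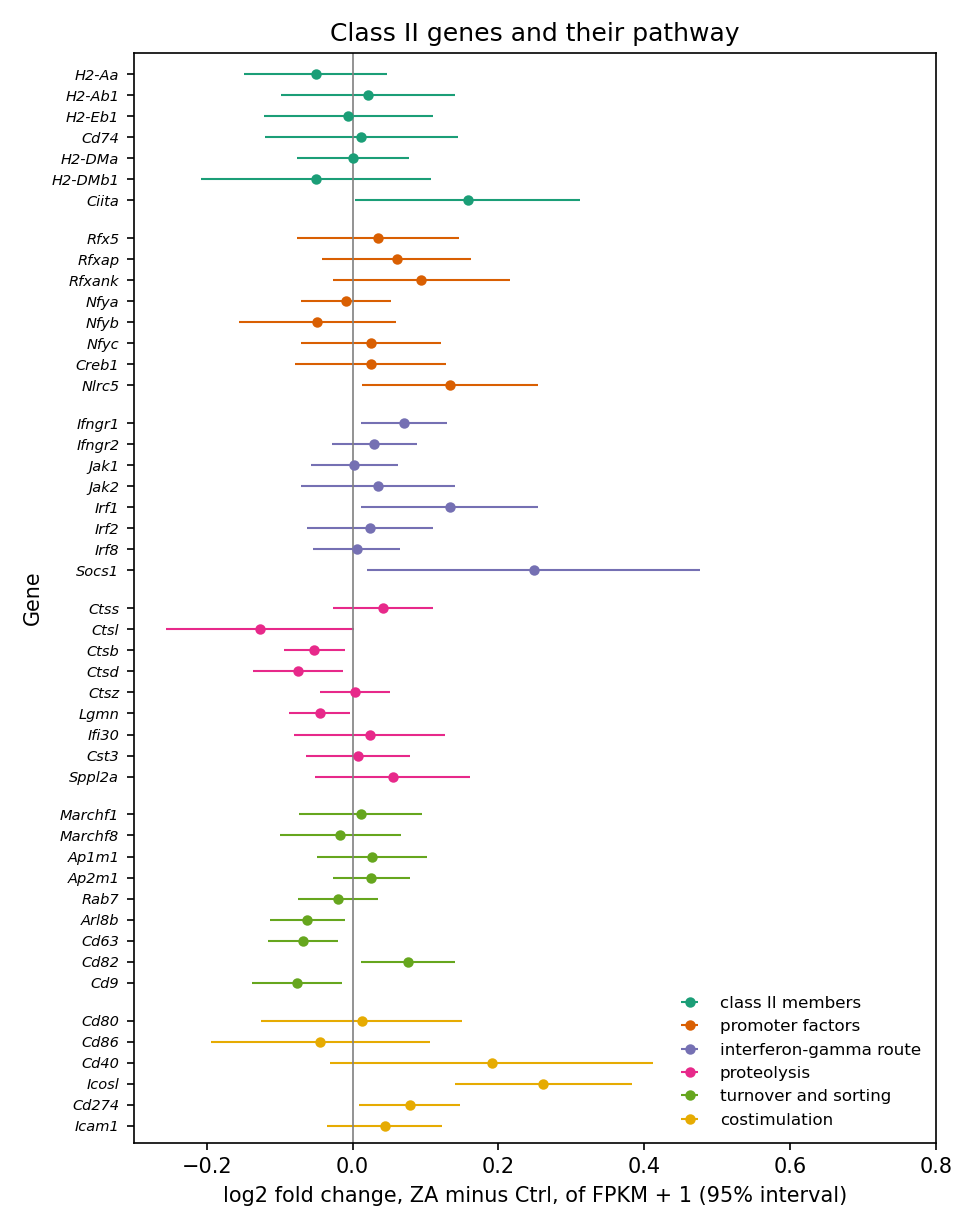
Log2 fold change of FPKM + 1, ZA minus Ctrl, for the 7 class II genes and the tested pathway genes reported here, with 95% intervals from limma (horizontal axis), genes grouped by list (colour). The intervals of the class II genes include 0 except that of Ciita (0.0033 to 0.31), and Icosl lies highest at 0.26.

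Cells other than macrophages also make class II, so the labelled cell type was checked against marker genes. All 9 macrophage markers were detected in every library, and their summed FPKM was 23737 to 27633 in Ctrl and 24617 to 28123 in ZA, most of it from Lyz2. Adgre1 and Csf1r, which define macrophages, had log2 fold changes of 0.13 and 0.11 (adjusted p = 0.0785 and 0.0701 from limma). Of 10 dendritic cell markers, 7 were below 1 FPKM in every library, and the sum was 70.3 to 74.6 FPKM in Ctrl and 71.8 to 74.2 FPKM in ZA. The defining markers Flt3 and Zbtb46 were at most 0.0896 and 0.0437 FPKM, and the sum came from Itgax and Clec10a, which macrophages also express. Of 8 B cell markers with a value, 6 were below 1 FPKM in every library, and the sum was 18.1 to 19.5 FPKM in Ctrl and 16.8 to 18.6 FPKM in ZA, most of it from Cd22. The defining marker Pax5 was at most 0.0262 FPKM.

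T and NK cell markers summed to 9.40 to 9.48 FPKM in Ctrl and 8.995 to 10.5 FPKM in ZA, with 9 of 10 below 1 FPKM in every library and Cd4 as the rest. The neutrophil and progenitor markers summed to 35.4 to 50.9 FPKM in Ctrl and 31.5 to 37.1 FPKM in ZA. Of their 6 tested genes, 4 were lower at an unadjusted p under 0.05 by limma, against 4.85% of all genes tested. At an adjusted p under 0.05, 0 were called in either direction. Ly6g was listed at 0 in every library. Mpo, a granule enzyme of myeloid progenitors, was at 2.51 FPKM in Ctrl and 1.70 FPKM in ZA on average (log2 fold change -0.38, adjusted p = 0.110 from limma). Whether these cells play a part in the values of the class II genes was not tested.

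**Figure D4:**
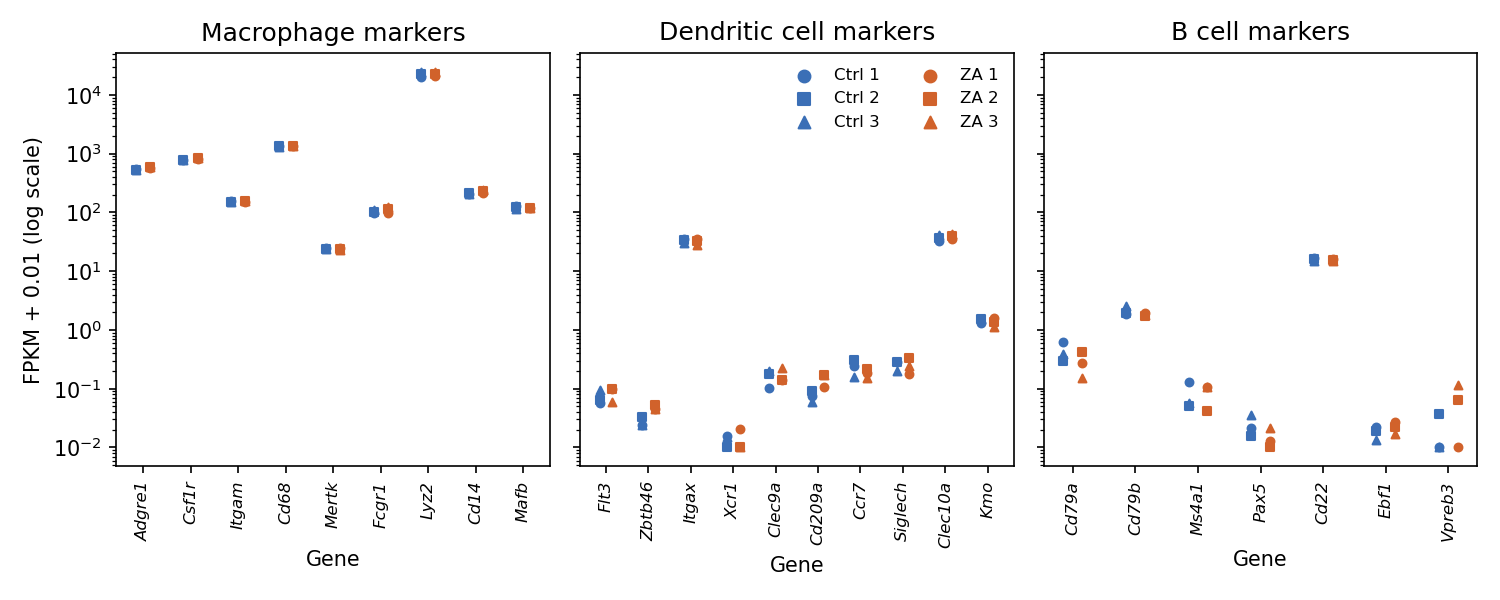
FPKM + 0.01 on a log scale for the macrophage, dendritic cell and B cell markers reported here in the 6 libraries; colour gives the group, marker shape the replicate number. Macrophage markers lie between 23.0 FPKM (Mertk) and 24669 FPKM (Lyz2), while Flt3, Zbtb46 and Pax5 lie below 0.1 FPKM.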

How the data were processed

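The authors deposited FPKM values of 6 libraries from paired reads of 150 bases, a value per gene and library, per the file headers. The submitters' processing notes name the build mm9, and the aligner, counter and annotation are not given in the sources used here. In 35423 of 35434 rows the symbol and values run together. Their borders were found from how the numbers are written and from the whole fragments that each FPKM must stand for, given the length of the gene and the total of the library. This restored 35424 rows and left out 10, and of 3000 simulated rows 2998 were cut exactly and 0 wrongly. Library totals were 41230600 to 42155808 fragments, and 3 fragments on a gene of median length are 0.0210 FPKM.

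The groups were compared on log2(FPKM + 1) by limma 3.58.1 under R 4.3.3 (eBayes with a trend), for the 9800 genes whose mean FPKM was 1 or more. The pseudocount of 1 understates changes of genes with low FPKM. Libraries were simulated with a spread of 5% beyond counting error. With 200 of 9775 genes changed, 99% of the 2-fold and 83% of the 1.25-fold changes were called, and 17 unchanged genes. With 0 changed genes 1 was called. The class II genes other than H2-DMa had coefficients of variation of 0.994% to 6.69% in Ctrl and 6.59% to 10.3% in ZA. The simulation called 199 genes and the data 36, which makes the adjusted threshold stricter in the data. The 83% may therefore be too high for the class II genes. No libraries of a group were duplicates (chi-square per gene 3.52 to 9.73). Named are the 7 genes, Rfx5, Irf1, the 3 genes of each pathway list with the largest moderated statistic, and the genes most and least alike; a few listed genes are left unreported. The members and lists were chosen with earlier results of these data known. Sequences and gene models on GRCm38 gave no coordinates to the deposited values.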

Additional observations from a re-analysis of the deposited data

How the results depend on the processing

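The results were recomputed with a pseudocount of 0.1, no filter, only genes with a mean FPKM of 5 or more, median centring, quantile normalization, an untrended variance prior, the replicate number as a block, voom on recovered fragments, and without each library. In all 14 alternatives 0 of the class II genes and 0 of the genes of each pathway list were called at an adjusted p under 0.05. This says little about stability where few genes were called at all, with 1 over all genes with no filter, 1 with the untrended prior, 1 each without Ctrl 1 and without Ctrl 2, and 0 without ZA 2. The other class II chains were tested only with no filter. Between 0 and 2 class II genes had an unadjusted p under 0.05 when a library was left out. The count was 0 with no filter, with the filter at 5 FPKM (where Ciita is not tested), with median centring, with quantile normalization and with the replicate block. Of the 5 genes most like the class II genes, 4 remained with median centring and 3 with the filter at 5 FPKM. Zfp623 and Mettl25 were below 5 FPKM in every library, so that filter removed them whatever their r.

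With median centring the log2 fold change was -0.0003 for Cd74 and -0.0122 for H2-DMa, and with quantile normalization it was -0.0076 for H2-DMa. Over the libraries left out, it was between -0.0539 and 0.0755 for Cd74, between -0.0148 and 0.0851 for H2-Ab1, between -0.0542 and 0.0535 for H2-Eb1, between -0.0065 and 0.0086 for H2-DMa, between -0.0953 and 0.0358 for H2-DMb1, between -0.0991 and -0.0047 for H2-Aa, and between 0.0954 and 0.2117 for Ciita. The cause was not tested. Signs held for H2-Aa in all 14 alternatives and for Ciita in the 13 that tested it.

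The replicate numbers are not stated to pair the cultures, so the main fit did not pair them. Whether they do cannot be told from the values here. The deviations from the group mean correlated at 0.28, 0.04 and 0.28 between the Ctrl and ZA libraries numbered 1, 2 and 3. Each library correlated best with its own number, but Ctrl 2 only narrowly, at 0.0393 with ZA 2 and 0.0334 with ZA 3. Ctrl 1 with ZA 3 and Ctrl 3 with ZA 1 were at -0.2975 and -0.2437. These correlations are across genes, which are not independent replicates. With the replicate block 78 genes were called over all genes, against 36 without it, and Ciita was at an adjusted p = 0.371 from limma. Voom called 132 genes, the pseudocount of 0.1 37, the filter at 5 FPKM 42, median centring 29 and quantile normalization 20. Without 1 library the count was between 0 (without ZA 2) and 25 (without ZA 1), so the background share of called genes depends on these choices.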
